A study of Mus musculus with 6 samples.

Results

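The genes described here encode 9 parts of the class I phosphoinositide 3-kinase (PI3K) system: the catalytic subunits Pik3ca, Pik3cb and Pik3cd, the regulatory subunits Pik3r1, Pik3r2 and Pik3r3, and the opposing phosphatases Inpp4b, Inpp5d and Inppl1. They were taken by symbol from a table of 24354 genes, and each of the 9 symbols was found on a single row. The libraries were 3 homozygous for the Pik3ca H1047R allele, called mutant below, and 3 wild type (WT), from the epidermis of C57BL6 mouse embryos at E18.5, shortly before birth. RNA came from epidermal cells sorted for a high surface level of α6 integrin, a laminin receptor subunit of basal keratinocytes. H1047R is an activating substitution in the kinase domain of the protein that Pik3ca encodes. The sources used here do not say which locus carries the allele, what drives any recombinase or whether animals were pooled. The labels do not tie the 3 libraries of a group to separate embryos, so each p-value reflects the spread among these libraries only, and part of that spread may be technical.

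Class I PI3K is a dimer of a catalytic and a regulatory subunit at the inner face of the plasma membrane. The regulatory subunit stabilises the catalytic one, holds it at low activity and, through its SH2 domains, brings it to phosphotyrosines on receptors and adaptors, where it makes phosphatidylinositol trisphosphate. SHIP phosphatases remove a phosphate from that lipid, and Inpp4b acts on the bisphosphate that they leave. In basal keratinocytes the pathway carries signals of insulin, insulin-like growth factor and epidermal growth factor receptors.

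Values are FPKM (fragments per kilobase of transcript, scaled to a library total), which correct for transcript length and can be compared between genes. They summed to between 538627 and 651769 in mutant libraries and to between 656761 and 767148 in WT libraries, and the number of reads behind them is unknown. Across genes, Pearson's r of log2 values was 0.959 to 0.98 within a group and 0.939 to 0.953 between groups. The summed level of 7 basal keratinocyte genes was between 23631 and 27053 FPKM in mutant and between 25638 and 26026 FPKM in WT libraries. All 7 were above 1 FPKM on average. Keratin genes made up most of that sum, so it does not show that the sort was alike in both groups. Calls of the 7 genes are given with the other markers below. Xist, expressed from the inactive X chromosome of females, was at 0.733, 0.0542 and 71.1 FPKM in mutant libraries and at 30.5, 24.2 and 0.530 FPKM in WT libraries. The Y-linked gene Ddx3y was at 19.8, 22.7 and 0.209 FPKM in mutant libraries and at 15.8, 17.6 and 20.9 FPKM in WT libraries. WT replicates 1 and 2 thus held both transcripts above 15 FPKM, and each of the other 4 libraries held 1 of them above 15 FPKM and the other under 1 FPKM. No mutant library held both at such levels, so the groups were not matched for these sex-linked transcripts. Whether RNA of male and female embryos was pooled in WT replicates 1 and 2 was not tested.

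The promoter sequences are shown because the 3 regulatory genes rose and 2 catalytic genes fell together in the results below. Each is the RefSeq window of GRCm38.p6 from 250 bases before to 50 bases after an annotated start, printed from 5′ to 3′ on the strand of the gene. For Pik3ca, Pik3cb and Pik3r3, the bases just after that start were not found in a GENCODE transcript of the gene. Capitals mark matches, on either strand, to GTAAACA (FOXO core), TGANTCA (AP-1), GGAATG (TEAD), CACGTG (E-box), CCAAT (bound by NF-Y) or TATAAA (bound by TBP).

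Pik3r1, long form start (chr13:101768168-101768467, minus strand): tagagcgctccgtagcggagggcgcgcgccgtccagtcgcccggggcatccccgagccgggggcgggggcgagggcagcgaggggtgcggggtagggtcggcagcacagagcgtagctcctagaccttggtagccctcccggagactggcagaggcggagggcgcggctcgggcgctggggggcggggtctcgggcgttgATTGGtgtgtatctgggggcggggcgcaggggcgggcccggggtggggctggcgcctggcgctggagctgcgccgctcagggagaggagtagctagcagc

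Pik3r1, internal start (chr13:101692581-101692880, minus strand): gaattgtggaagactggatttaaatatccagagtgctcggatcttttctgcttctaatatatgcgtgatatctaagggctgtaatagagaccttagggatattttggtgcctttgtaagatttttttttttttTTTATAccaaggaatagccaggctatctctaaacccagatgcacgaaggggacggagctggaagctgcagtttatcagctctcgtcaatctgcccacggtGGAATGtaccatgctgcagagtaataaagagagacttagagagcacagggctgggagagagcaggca

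Pik3r2 (chr8:70776663-70776962, minus strand): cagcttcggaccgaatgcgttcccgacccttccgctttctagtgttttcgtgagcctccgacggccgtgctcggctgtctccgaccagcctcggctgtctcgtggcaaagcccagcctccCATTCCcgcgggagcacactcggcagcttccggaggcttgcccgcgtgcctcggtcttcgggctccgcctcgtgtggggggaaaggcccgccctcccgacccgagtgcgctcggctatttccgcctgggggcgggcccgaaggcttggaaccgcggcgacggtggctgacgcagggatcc

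Pik3r3, first start (chr4:116221166-116221465, plus strand): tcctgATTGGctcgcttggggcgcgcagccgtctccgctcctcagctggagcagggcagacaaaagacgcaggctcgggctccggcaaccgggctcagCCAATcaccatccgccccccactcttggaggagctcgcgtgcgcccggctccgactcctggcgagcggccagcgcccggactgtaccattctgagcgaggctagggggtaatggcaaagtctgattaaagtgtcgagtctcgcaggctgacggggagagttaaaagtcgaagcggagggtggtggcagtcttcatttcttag

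Pik3ca (chr3:32396815-32397114, plus strand): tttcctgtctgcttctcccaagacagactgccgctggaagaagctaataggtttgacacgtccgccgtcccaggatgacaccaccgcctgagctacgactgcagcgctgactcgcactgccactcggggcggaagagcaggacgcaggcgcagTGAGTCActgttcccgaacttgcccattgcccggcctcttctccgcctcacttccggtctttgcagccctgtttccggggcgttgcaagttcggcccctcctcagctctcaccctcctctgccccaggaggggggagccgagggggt

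Pik3cb (chr9:99140162-99140461, minus strand): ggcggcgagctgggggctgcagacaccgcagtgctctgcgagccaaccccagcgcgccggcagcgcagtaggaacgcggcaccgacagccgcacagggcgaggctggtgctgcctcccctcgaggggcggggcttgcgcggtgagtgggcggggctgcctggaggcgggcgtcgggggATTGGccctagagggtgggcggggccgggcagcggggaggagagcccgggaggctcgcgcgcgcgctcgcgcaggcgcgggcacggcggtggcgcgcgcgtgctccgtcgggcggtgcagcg

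No window of the 9 genes held a match to GTAAACA, which 3.65% of 32851 RefSeq promoter windows hold, or to CACGTG, which 7.15% hold. Among the 6 windows printed, TGANTCA was matched in that of Pik3ca alone (7.81% of all windows). CCAAT was matched in those of Pik3r1 at its long form start, Pik3r3 at its first start and Pik3cb (37.4% of all windows). GGAATG was matched in those of Pik3r2 and of the internal start of Pik3r1 (14.7%). The windows of later Pik3r3 starts, not printed, held no match to any of these motifs. TATAAA was matched in the internal Pik3r1 window alone (13.6%). The Pik3r1 starts differ in composition, with 34 CpG in the window of the long form and 6 in the internal one, against a median of 7 over all windows. The windows of Pik3cb and Pik3r2 held 44 and 36 CpG. Among the printed windows, no motif was thus held by all of the regulatory genes or by both catalytic genes. The window of Inpp4b, which also fell, is not printed and held CCAAT, as did that of Pik3cb. A match is only a match of letters and says nothing of binding.

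Regulatory subunits made up most of the summed level of the 6 subunits in each group, and Pik3r2 had the highest mean of the 9 genes in mutant and in WT libraries. In mutant libraries the order of mean levels was Pik3r2, Pik3r1, Inppl1, Pik3cb, Pik3r3, Pik3ca, Inpp4b, Pik3cd and Inpp5d, and the only neighbours whose libraries overlapped were Inppl1 and Pik3cb. In WT libraries the order was Pik3r2, Pik3cb, Pik3r1, Inppl1, Pik3ca, Inpp4b, Pik3r3, Pik3cd and Inpp5d. There the libraries of Pik3r1 and Inppl1, of Inppl1 and Pik3ca, and of Pik3cd and Inpp5d overlapped. Pik3r3 stood above Pik3ca in every mutant library and below Inpp4b in every WT library.

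**Figure D1:**
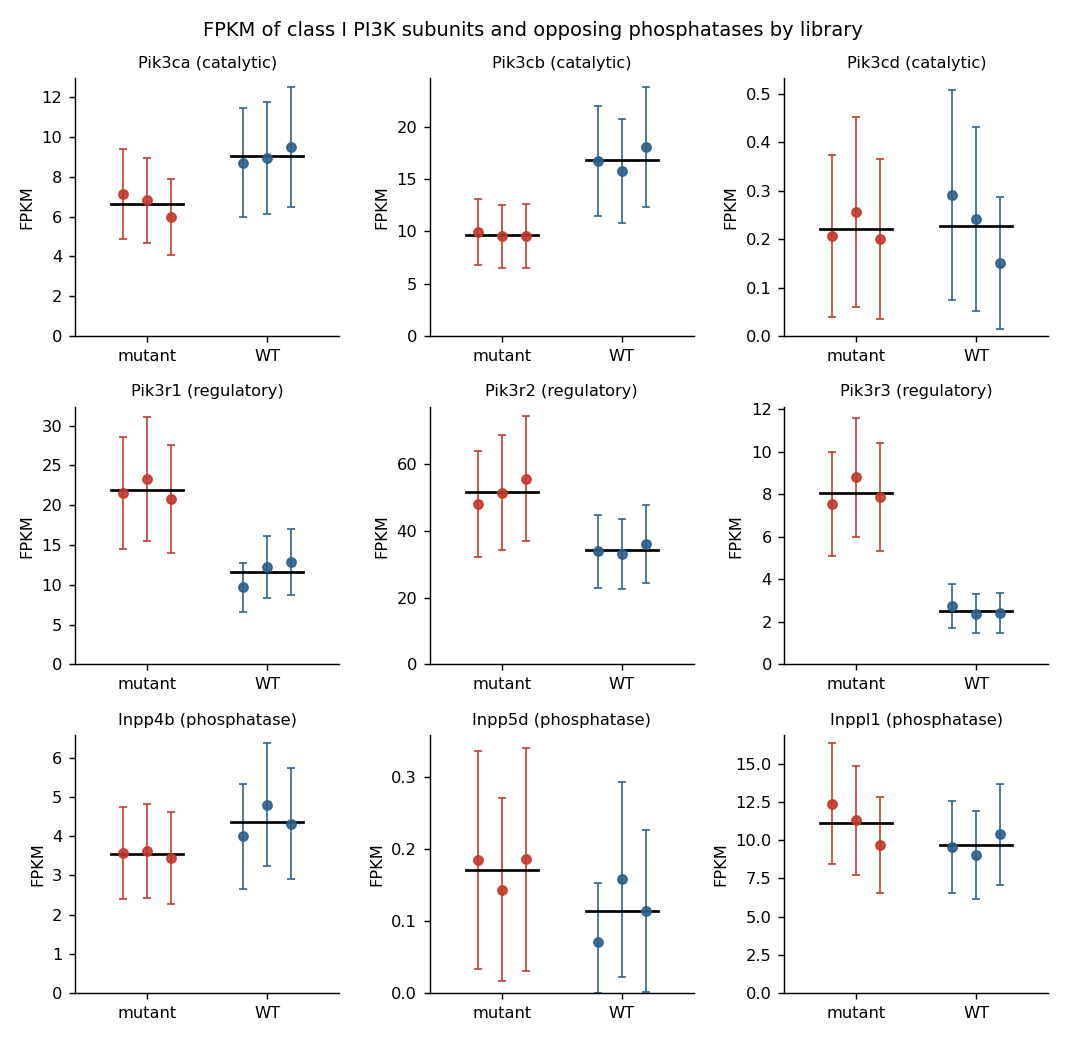
FPKM of each of the 9 genes (vertical axes, starting at 0) in the 3 mutant and 3 WT libraries. Points are libraries, bars the interval deposited with each value and black lines the group means; the intervals of the groups are apart for Pik3r3 alone.

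Mutant libraries were set against WT libraries to ask how expression of the PI3K genes themselves differs when Pik3ca carries an activating substitution. All 3 regulatory genes rose, by 1.51-fold to 3.21-fold as ratios of mean FPKM. Of the 2 catalytic genes above 1 FPKM both fell, to 0.735 and 0.574 of the WT mean, and among the phosphatases Inpp4b fell to 0.811 of the WT mean while Inppl1 did not pass the test. Giving every library an equal FPKM sum ended the calls of Pik3ca and Inpp4b. Pik3cd and Inpp5d averaged under 1 FPKM and were not tested. The test was limma on log2(FPKM + 1) with Benjamini-Hochberg adjustment over 11385 genes, of which 46% passed at 0.05, 23.2% as higher and 22.8% as lower. A call is therefore common in this comparison, and the groups of 56% of the tested genes did not overlap, with 29.1% higher and 26.9% lower in mutant libraries. Of the 7 tested genes described here, 6 passed, and for these 6 (3 higher, 3 lower) the groups did not overlap. The exact permutation test of 3 against 3 libraries cannot go below 0.1, which it gave for each of these 6 genes.

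Pik3r1 encodes p85α and, from internal starts, the shorter forms p55α and p50α, which the gene-level value does not separate. It was measured at 21.6, 23.3 and 20.7 FPKM in mutant libraries, against 9.68, 12.2 and 12.9 FPKM in WT libraries. Every mutant value was above every WT value, and WT replicate 1 was the lowest of the 6. The log2 difference was 0.87 (SE 0.103, limma adjusted p = 0.000422), and 1.71% of tested genes had a larger rise. The gene lies on chromosome 13 at 101680761 to 101768217, minus strand, of GRCm38.

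Pik3r2 encodes p85β. Its level was 48.0, 51.3 and 55.6 FPKM in mutant libraries, against 33.8, 33.0 and 36.0 FPKM in WT libraries. The groups were apart, with a log2 difference of 0.58 (SE 0.0700, limma adjusted p = 0.000474). The gene lies on chromosome 8 at 70768181 to 70776712, minus strand, where exons of 6330537M06Rik overlap it on the other strand. No label says that the libraries keep the strand, so reads of that gene may be included.

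Pik3r3, which encodes p55γ, a regulatory subunit that lacks the amino-terminal domains of p85, had the widest separation. It was at 7.53, 8.79 and 7.86 FPKM in mutant libraries, against 2.75, 2.38 and 2.41 FPKM in WT libraries. The mean was 8.06 ± 0.654 FPKM in mutant and 2.51 ± 0.209 FPKM in WT libraries (SD, n = 3 each), and the log2 difference was 1.37 (SE 0.0828, limma adjusted p = 1.85e-05). The lowest bound of a deposited interval in mutant libraries, 5.10 FPKM, was above the highest bound in WT libraries, 3.79 FPKM; this held for no other gene of the 9. A larger rise was seen in 0.501% of tested genes. Pik3r3 (chromosome 4, 116221914 to 116303056, plus strand) shares exons with Gm49337, a gene annotated on the same strand, so the split of reads between them is uncertain.

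Pik3ca encodes p110α, the catalytic subunit that carries the substitution in the mutant. It was at 7.15, 6.81 and 5.98 FPKM in mutant libraries, against 8.70, 8.92 and 9.503 FPKM in WT libraries. No mutant library reached the lowest WT library. The log2 difference was -0.39 (SE 0.0769, limma adjusted p = 0.00433), with 14.4% of tested genes falling further. Scaling the libraries to the same total FPKM ended that call (-0.10, limma adjusted p = 0.589). The value sums all alleles, since no allele counts were used here. The locus in the table (chromosome 3, 32436151 to 32468486, plus strand) begins 39086 bases after the start site of the printed promoter window. By root mean square difference of centred log2 profiles over the 6 libraries, the tested coding genes most like Pik3ca were Ahnak (0.0127), Ppp1r10 (0.0228) and Papln (0.0296).

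Pik3cb, which encodes p110β, the isoform that also responds to G protein-coupled receptors, fell further than Pik3ca. It was at 9.92, 9.54 and 9.55 FPKM in mutant libraries, against 16.7, 15.8 and 18.1 FPKM in WT libraries. The 3 mutant libraries lay close together, all under the lowest WT library. The log2 difference was -0.74 (SE 0.0650, limma adjusted p = 9.68e-05), and 5.65% of tested genes fell further. The gene lies on chromosome 9 at 99038402 to 99140211, minus strand.

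Pik3cd encodes p110δ, best known from leukocytes. It was at 0.207, 0.256 and 0.200 FPKM in mutant libraries, against 0.291, 0.242 and 0.151 FPKM in WT libraries. The groups overlapped, with means of 0.221 FPKM in mutant and 0.228 FPKM in WT libraries. The deposited intervals reached between 74.4% and 90.6% of a value to each side, so a difference could not be judged. With no filter on low values, where 27.9% of 18122 genes passed, its limma adjusted p was 0.937. The genes of the separate class IB enzyme, Pik3cg, Pik3r5 and Pik3r6, were also under 1 FPKM, and their summed level was between 0.228 and 0.256 FPKM in mutant and between 0.181 and 0.297 FPKM in WT libraries.

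Among the phosphatases, Inppl1, which encodes SHIP2, the form found in most tissues, had the highest level. It was at 12.4, 11.3 and 9.71 FPKM in mutant libraries, against 9.57, 9.04 and 10.4 FPKM in WT libraries. The groups overlapped, because mutant replicate 3 was under WT replicate 3, and the log2 difference of 0.18 (SE 0.0933) did not pass (limma adjusted p = 0.144). It passed as higher without mutant replicate 3 (0.27, limma adjusted p = 0.0330) and was at 0.11 without mutant replicate 1 (limma adjusted p = 0.403). Exons of Phox2a and Gm10602 overlap Inppl1 on the other strand.

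Inpp4b, a phosphatase of the bisphosphate made by SHIP enzymes, was at 3.57, 3.63 and 3.44 FPKM in mutant libraries, against 3.995, 4.81 and 4.32 FPKM in WT libraries. The groups did not overlap, and the log2 difference was -0.24 (SE 0.0799, limma adjusted p = 0.0408). That call was lost in 5 of the 6 fits that left out a library, all but the fit without WT replicate 1, with log2 differences between -0.29 and -0.18 and the highest limma adjusted p at 0.130. Inpp5d, which encodes SHIP1 of blood cells, was at 0.184, 0.144 and 0.186 FPKM in mutant libraries, against 0.0714, 0.158 and 0.114 FPKM in WT libraries, and the groups overlapped.

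Genes that mark cells other than keratinocytes were read beside these values. Of all tested genes, 46% passed, 23.2% as higher and 22.8% as lower, and the calls below are to be read against these shares. Of 15 leukocyte markers, 7 were tested, and the 3 that passed, Cd68, Fcer1g and C1qc, were lower. The summed level of the 15 was between 12.6 and 14.0 FPKM in mutant and between 16.4 and 22.5 FPKM in WT libraries. Cd207 was listed at 0 in every library, and Ptprc averaged 0.0820 FPKM in mutant and 0.0569 FPKM in WT libraries. Of 6 melanocyte markers, 2 were tested and both, Dct and Pmel, were lower (summed level 10.7 to 13.9 FPKM in mutant and 14.7 to 20.0 FPKM in WT libraries). Of 6 dermal fibroblast markers, 5 were tested and 1, Dcn, was lower (summed level 302.8 to 336.6 FPKM in mutant and 369 to 501 FPKM in WT libraries). Most of that sum was Dcn itself, and the other 4 tested genes did not pass. Of 4 erythroid markers, 3 were tested and 1, Alas2, was lower (summed level 9.07 to 39.9 FPKM in mutant and 32.1 to 120.8 FPKM in WT libraries). The 5 endothelial markers (summed level 0.753 to 1.64 FPKM in mutant and 1.20 to 2.60 FPKM in WT libraries) and the 3 Merkel cell markers (0.403 to 0.594 FPKM in mutant and 0.190 to 0.247 FPKM in WT libraries) were all under 1 FPKM on average. With no filter on low values, where 27.9% of 18122 genes passed, 2 Merkel cell markers were called higher. They were Atoh1 (0.14, limma adjusted p = 0.0188) and Isl1 (0.17, limma adjusted p = 0.0240). Of the 7 basal markers, Itga6, Itgb4 and Col17a1 were lower and Krt15 was higher. Itga6 encodes the α6 integrin used for the sort and averaged 122.5 FPKM in mutant and 163.2 FPKM in WT libraries. Its log2 difference was -0.08, without a call, once libraries were scaled to the same total FPKM. Whether the sort took the same cells in both groups was not tested. With libraries scaled to the same total FPKM, the calls of Cd68 (-0.22), Fcer1g (-0.16), C1qc (-0.26), Dct (-0.06), Pmel (-0.33), Dcn (-0.01) and Alas2 (-0.48) ended. The globin gene Hba-a1 was then called lower (-2.50, limma adjusted p = 0.0463), against -2.76 and a limma adjusted p of 0.0529 with the values as deposited. Under that scaling 1 basal marker, Itgb4 (-0.42), was lower, and 3, Krt15 (0.83), Krt5 (0.32) and Trp63 (0.39), were higher. Of all tested genes, 47.2% were then higher and 7.4% lower. The part of any of these cells in the fall of Pik3ca, Pik3cb and Inpp4b was not tested, and in bulk RNA fewer cells of a type and less RNA per cell cannot be told apart.

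Ratios of genes within a library do not depend on how libraries were scaled to each other. Summed regulatory FPKM was 4.46, 5.02 and 5.35 times summed catalytic FPKM in mutant libraries, against 1.80, 1.91 and 1.85 times in WT libraries. Every mutant library thus held more regulatory transcript per catalytic transcript than any WT library, with a mean log2 ratio of 2.30 ± 0.133 in mutant and 0.89 ± 0.0422 in WT libraries (SD, n = 3 each; difference 1.41, exact permutation p = 0.1). The sums themselves were 81.6 ± 3.87 FPKM in mutant and 48.4 ± 2.59 FPKM in WT libraries for the regulatory genes, and 16.5 ± 0.778 FPKM in mutant and 26.1 ± 1.42 FPKM in WT libraries for the catalytic genes. The ratio of summed phosphatase to summed catalytic FPKM was 0.935, 0.909 and 0.848 in mutant libraries, against 0.530, 0.561 and 0.535 in WT libraries, with no overlap (difference of log2 ratios 0.73, exact permutation p = 0.1). The phosphatase sum itself, 14.9 ± 1.42 FPKM in mutant and 14.2 ± 0.610 FPKM in WT libraries, differed by less than the spread between libraries.

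The make-up of each set differed as well. Pik3ca gave 41.4%, 41.0% and 38.0% of catalytic FPKM in mutant libraries, against 33.8%, 35.8% and 34.3% in WT libraries. Its share was thus larger in every mutant library although its level was lower, because Pik3cb fell further. Pik3cb remained the larger part, at 58.5% ± 1.89 in mutant and 64.5% ± 1.05 in WT libraries (SD, n = 3 each). Pik3r3 gave 9.76%, 10.5% and 9.34% of regulatory FPKM in mutant libraries, against 5.95%, 5.001% and 4.69% in WT libraries, with no overlap. Pik3r2 gave 63.3% ± 2.42 in mutant and 70.9% ± 2.004 in WT libraries, also with no overlap. The share of Pik3r1, 26.8% ± 1.92 in mutant and 23.9% ± 2.62 in WT libraries, overlapped between the groups (exact permutation p = 0.3). Inppl1 gave 74.8% ± 1.99 of phosphatase FPKM in mutant and 68.3% ± 3.22 in WT libraries, without overlap. Of 11 shares and ratios, 9 did not overlap, where the groups of 56% of single tested genes did not. The shares of a set add up to a whole, so they are bound to each other and are not separate results. The 9 include the share of Pik3cd (1.34% in mutant and 0.88% in WT libraries on average), a gene too low to judge. Each of these 9 had the smallest exact permutation p that the design allows, 0.1, which is 0.122 after Benjamini-Hochberg adjustment over the 11, so no share or ratio passed 0.05.

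**Figure D2:**
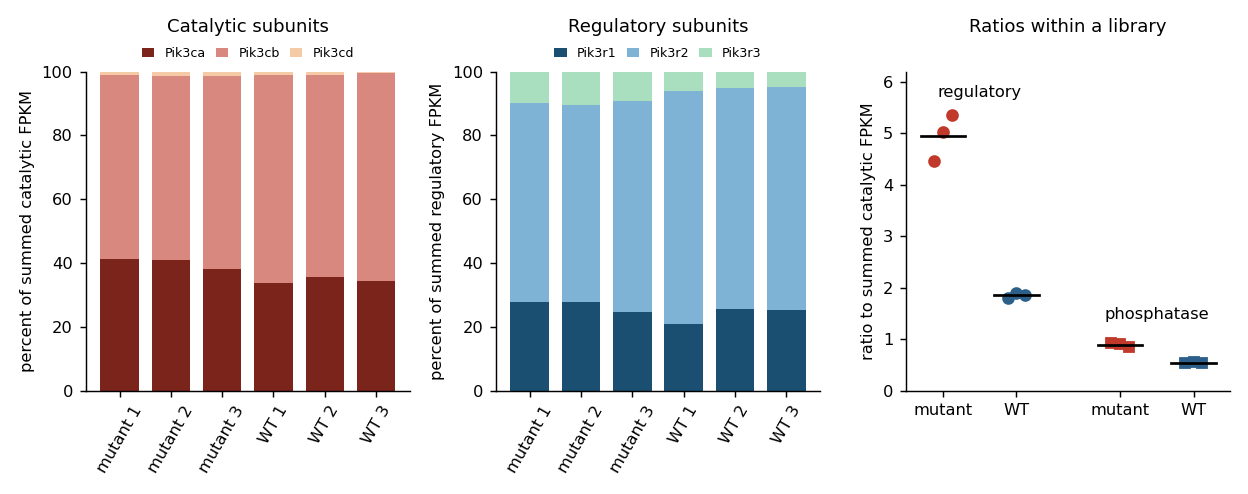
Percent of summed catalytic (left) and regulatory (middle) FPKM from each subunit gene in each library, and the ratio of summed regulatory or phosphatase FPKM to summed catalytic FPKM (right; points are libraries, lines are group means). The regulatory to catalytic ratio is between 4.46 and 5.35 in mutant and between 1.80 and 1.91 in WT libraries.

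Scaling the libraries to an equal FPKM sum moved every fold change, ended or made calls for Pik3ca, Inpp4b and Inppl1, and left the order of the 7 fold changes as it was. When each library was scaled to the same total FPKM, the median gene moved up by 0.29 on the log2 scale, and 47.2% of tested genes were then called higher and 7.4% lower. Pik3r1 (1.18), Pik3r2 (0.90) and Pik3r3 (1.63) were still called higher and Pik3cb (-0.43) still lower. The call of Pik3ca ended, Inpp4b turned to 0.03 (limma adjusted p = 0.872) and Inppl1 was called higher (0.49, limma adjusted p = 0.0355). Relative to the median gene under that scaling, Pik3ca was at -0.40, Pik3cb at -0.74, Pik3r1 at 0.88, Pik3r2 at 0.60, Pik3r3 at 1.33, Inpp4b at -0.28 and Inppl1 at 0.18. With the values as deposited, these relative changes were -0.40 for Pik3ca, -0.75 for Pik3cb, 0.86 for Pik3r1, 0.57 for Pik3r2, 1.36 for Pik3r3, -0.25 for Inpp4b and 0.17 for Inppl1.

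**Figure D3:**
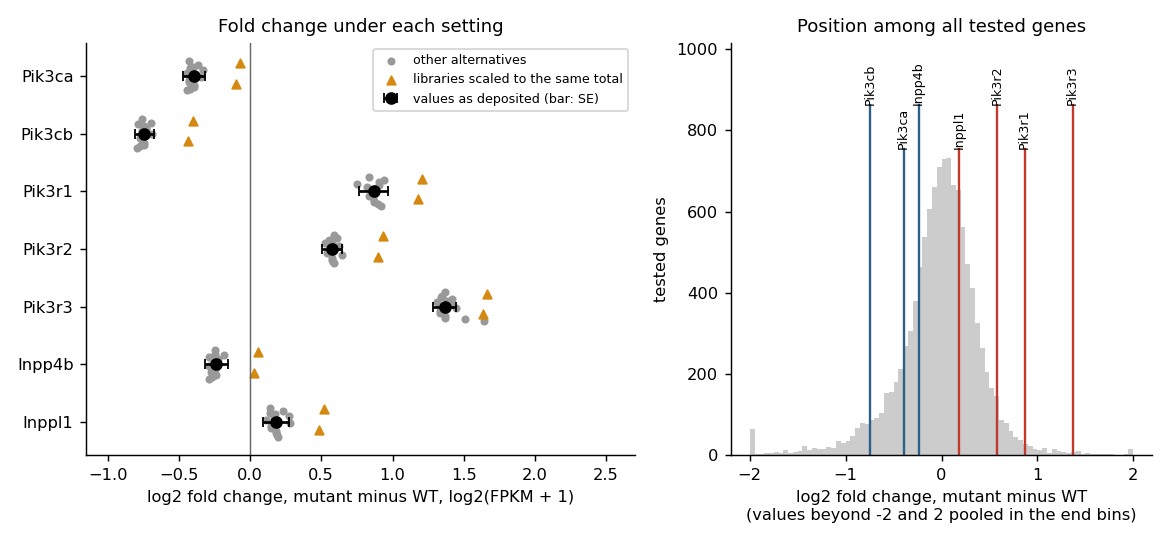
Left, log2 fold change (mutant minus WT) of the 7 tested genes with the values as deposited (black, bar SE) and under each alternative (grey), with scalings to the same total as triangles. Right, the same fold changes among the 11385 tested genes. Of the 7, Pik3r3 at 1.37 and Pik3cb at -0.74 lie farthest out on either side.

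Genes next to the class I enzymes moved in both directions. Directions in the lists that follow are those of the deposited values, where the median tested gene was at 0.01. With libraries scaled to the same total FPKM, the median tested gene was at 0.30, and 47.2% of tested genes were higher and 7.4% lower. Counts and medians of the lists under that scaling are to be read against these values. Of 8 genes of class II and class III PI3K and their partners, 7 were tested, 1 rose and 3 fell, with a median of -0.18. Pik3c2b, a class II kinase, rose (0.63, limma adjusted p = 0.00531), and Pik3c2a, another class II kinase, fell (-0.23, limma adjusted p = 0.0258). Atg14 and Uvrag, partners of the class III kinase in autophagy and endosomal traffic, fell (-0.66 and -0.32). Scaling to the same total ended the calls of Pik3c2a (0.08) and Uvrag (-0.02) and left 3 of the 7 higher and 1 lower, with a median of 0.13.

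Of 23 other phosphoinositide phosphatase genes, 22 were tested, 6 rose and 6 fell, with a median of 0.04. Fig4, a phosphatase of endosomal lipids, was at 4.89 ± 0.208 FPKM in mutant and 2.61 ± 0.247 FPKM in WT libraries (SD, n = 3 each; log2 difference 0.71, limma adjusted p = 0.000346). The myotubularin family genes Mtmr3 (-0.37) and Mtmr14 (-0.52) fell. Scaling to the same total ended the 6 lower calls, Mtmr3 (-0.04) and Mtmr14 (-0.21) among them, and left 10 of the 22 higher, with a median of 0.31.

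Of 11 phosphatidylinositol and phosphatidylinositol phosphate kinase genes, 10 were tested, 4 rose and 2 fell, with a median of 0.09. Pip5k1a, which makes the lipid that class I PI3K phosphorylates, was at 22.2, 22.8 and 21.6 FPKM in mutant libraries, against 48.5, 45.8 and 46.5 FPKM in WT libraries. The groups were apart, and the log2 difference was -1.04 (SE 0.0547, limma adjusted p = 9.75e-06). Pip4k2b (0.66) and Pikfyve (0.51) rose, and Pi4k2a fell (-0.34). With the same total, 6 were higher and 1 lower, with a median of 0.39, and Pip5k1a stayed lower (-0.72).

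Adaptors and inhibitors of class I PI3K were split too, with 2 of 8 tested genes higher and 3 lower (11 listed, median 0.00). Irs2, an adaptor that links insulin and insulin-like growth factor receptors to the regulatory subunits, was at 19.1, 18.7 and 18.3 FPKM in mutant libraries, against 38.2, 37.0 and 48.9 FPKM in WT libraries. Its log2 difference was -1.09 (SE 0.102, limma adjusted p = 0.000131). The related adaptor Irs1 (-0.53) and Pik3ip1 (-0.56), a membrane protein that inhibits the kinase, fell, and the adaptor Sh2b1 rose (0.34). With the same total, 4 were higher and 1 lower, with a median of 0.32; Irs2 (-0.78) stayed lower, and the calls of Irs1 (-0.22) and Pik3ip1 (-0.27) ended.

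Of 23 genes of proteins that bind the lipid product through PH domains, 16 were tested, 2 rose and 6 fell, with a median of -0.14. Cyth2, an exchange factor of ARF GTPases, fell (-0.77), as did Swap70 (-0.65), the cortical protein gene Phldb2 (-0.78) and the filopodial myosin Myo10 (-0.56). With the same total, 5 were higher and 2, Cyth2 (-0.44) and Phldb2 (-0.50), lower, with a median of 0.14. Calls made up 4 of 7, 12 of 22, 6 of 10, 5 of 8 and 8 of 16 of the tested genes of these 5 lists in the order given, against 46% of all tested genes.

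**Figure D4:**
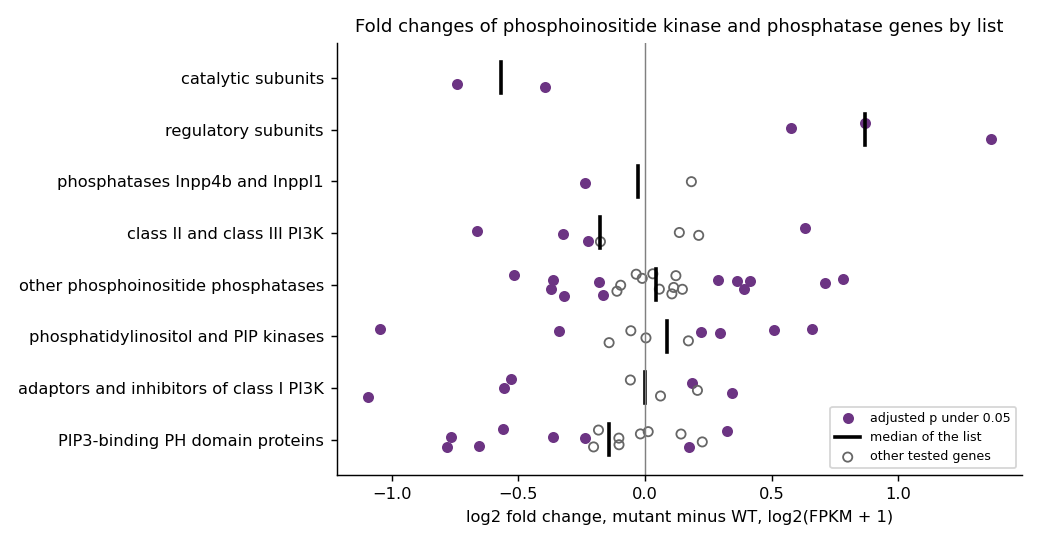
Log2 fold change (mutant minus WT, horizontal axis) of the tested genes of each list of phosphoinositide kinase and phosphatase genes, adaptors and lipid-binding proteins, filled where the limma adjusted p was under 0.05, with a black line at the median of the list. All 3 regulatory subunit genes lie right of 0.5, both tested catalytic genes lie left of 0, and each of the other lists drawn has genes on both sides of 0; cell type markers are not drawn.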

How the data were processed

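The authors deposited FPKM for each gene in each library, and beside each value a status and an interval whose bounds are a signal on the FPKM scale, per the file headers. Alignment with TopHat and quantification with Cufflinks are named in the submitters' processing notes; their versions, settings and library scaling were not stated in the labels. The notes name build mm9, but 98.9% of 23323 symbols found in GENCODE M21 lay on the gene of that name in GRCm38, so positions, with 1 added to each start, are read as GRCm38.

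Differences were fitted with limma 3.58.1 in R 4.3.3 (two-sided, moderated variances with a mean trend) on log2(FPKM + 1) for the 11385 genes averaging 1 FPKM or more. P-values were adjusted by Benjamini-Hochberg over them and called at 0.05. Fold changes on this scale understate those of low genes. Shares and ratios were compared by two-sided exact permutation. Python 3.11.15 (numpy 2.4.6, pandas 2.3.3, matplotlib 3.10.9) was used otherwise. The limma procedure was tested on simulated data in which few genes changed, all upward. That setting differs from these data and was not a test of library scaling.

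The genes and lists were chosen with earlier results of these data known. All 9 genes are named. Other lists give up to 4 genes each, called genes first by smallest p and then by level, and the 3 genes nearest Pik3ca were added; a result that this rule takes is not reported here, and cell type markers are partly given only within the counts and summed levels of their lists. Cd207, Ptprc, Krt5, Trp63, Xist and Ddx3y lie outside the rule and were chosen after their values were seen. Promoters are those of RefSeq, GRCm38.p6. Alternatives covered the pseudocount, filter, scaling, variance prior, library weights, a replicate block and leaving out each library. Scaling without small RNAs and Xist as a covariate were added after the data were seen.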

Additional observations from a re-analysis of the deposited data

How the results depend on the processing

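Pik3cb, Pik3r1, Pik3r2 and Pik3r3 kept direction and call in all 18 alternatives, with log2 fold changes of -0.79 to -0.40, 0.75 to 1.21, 0.52 to 0.93 and 1.31 to 1.66. Pik3ca lost its call in 2 of 18, those that scaled libraries to the same total FPKM (-0.10) or to the same total without small RNAs (-0.07, limma adjusted p = 0.637). Both scalings left 1 of the 9 genes lower, Pik3cb, against 3 with the values as deposited. Both turned Inpp4b to 0.0271 and 0.0525, and both called Inppl1 higher, as did library weights (0.28). Inpp4b also lost its call with no filter on low values (limma adjusted p = 0.0822) and with the replicate block (0.0853), and could not be tested at a mean of at least 5 FPKM. Leaving out a library gave between 3866 and 5081 called genes, against 5234 with all 6. The 88 alternative values of the shares and ratios left out a library or used the bounds of the deposited intervals. All differed from the main value by less than the spread between libraries. For the fits that left out a library this was fixed in advance, because so few libraries cannot move a group mean beyond that spread. The bounds were taken all low or all high at once, which largely cancels in a share or ratio. These values are therefore no test of how firm the shares and ratios are.

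Deviations of same-numbered libraries from their group means correlated at 0.127, 0.122 and -0.007 across tested genes. Mutant replicates 1 and 2 correlated best with the WT library of the same number, and mutant replicate 3 with WT replicate 2 (0.031). These values do not settle whether replicate numbers pair the libraries. The replicate block left 3798 called genes. With the log2 level of Xist as a covariate the 6 called genes of the 9 stayed called. Read depth is unknown. Pik3cd and Inpp5d were too low to judge, with deposited intervals that reached up to 90.6% and 106.7% of a value to each side.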
